A study of Mus musculus with 10 samples.

Results

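The genes described are 10 components of insulin-like growth factor (IGF) signalling, followed through 10 mouse prostate orthograft tumours. They are the ligand gene Igf1, the receptor genes Igf1r and Insr, the adaptor genes Irs1 and Irs2, and the binding protein genes Igfbp2, Igfbp3, Igfbp4, Igfbp5 and Igfbp7. They were taken by name from the 47069 gene IDs of the count tables, and all 10 were found. The choice was made with earlier results of these data known. Each passed the filter on low counts, with raw counts between 47 and 43903 in a tumour.

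An orthograft here is a tumour grown from about 5000000 cultured cells placed in an anterior prostate lobe of a male CD-1 Nude mouse, a strain without a normal thymus, so that T cells are largely missing while other host immune and stromal cells remain. The line CP2, from a donor mouse aged 8 months, gave 4 tumours, and CP1, from a donor aged 6 months, gave 3. Both donors carried a deletion of exon 3 in 1 copy of Ctnnb1, written Ctnnb1pc(ex3)Δ/+ in the labels, which removes the part of beta-catenin that marks it for destruction. P1, from a donor aged 14 months without that deletion, gave 3 tumours. All 3 lines were made from prostate tumours. The lines differ in a further part of their genotypes as well. Each is a single line, so line, genotype and donor age cannot be told apart. Nothing in the labels says that each library comes from its own animal, so the p-values measure how far these samples spread, technical spread included. The title of CP2 replicate 1 reads CP1, but CP2 is given in its source and tissue labels, and it was kept in CP2.

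IGF-I is a secreted growth factor that binds the receptor tyrosine kinase encoded by Igf1r, a close relative of the insulin receptor encoded by Insr. The activated receptors phosphorylate the docking proteins IRS-1 and IRS-2, which recruit PI3-kinase and so switch on AKT and mTOR. IGF binding proteins hold the ligand in blood and tissue and are in turn cut by proteases that release it. In the prostate, stromal cells are a known local source of IGF-I and epithelial cells a known responder.

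Libraries held 18800912 to 20638085 counts in CP2, 25081535 to 30546426 in CP1 and 28050484 to 37180721 in P1, so that 3 counts correspond to 0.0923 to 0.154 CPM, the count scaled to a common library total. The summed level of 5 epithelial markers (Krt8, Krt18, Krt19, Epcam and Cdh1) was 214 to 427 CPM in CP2, 710 to 1355 in CP1 and 9051 to 18471 in P1, and all 5 fell in each CP line against P1. The prostate regulator Hoxb13 was present at 38.9 CPM or more in every tumour, while Pbsn, a secretory product of the normal gland, stood at 0.0465 to 12.0 CPM in CP2. Seminal vesicle transcripts summed to 3.28 to 1584 CPM in CP2, 6.33 to 27.4 in CP1 and 18028 to 167615 in P1. Graft and host are both mouse, so the counts cannot assign a transcript to either. In bulk tumours, fewer cells of a type and less RNA per cell cannot be told apart.

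Levels are CPM scaled with TMM factors, a correction for differences in library composition. Differences are log2 fold changes ± SE from edgeR's quasi-likelihood fit over all 10 tumours, with p-values adjusted by Benjamini-Hochberg over the 17644 genes tested, and a gene was called at an adjusted p below 0.05. Against P1, 8 of the 10 IGF genes were called in CP2, 2 higher and 6 lower, where 56.7% of all tested genes were called. In CP1 against P1, 4 were called, 1 higher and 3 lower, where 44.8% of all genes were. Between CP2 and CP1, 5 were called, 1 higher and 4 lower, where 43.3% of all genes were. By direction, 28.3% of all genes were higher and 28.4% lower in CP2 against P1, 22.4% were higher and 22.4% lower in CP1 against P1, and 21.3% were higher and 21.9% lower in CP2 against CP1. The shares in CP1 against P1 and in CP2 against CP1 lie near those of all genes and are no result about the 10 genes. The higher share in CP2 against P1 was not tested as a set. Leaving out 1 tumour at a time gave 4 to 6 lower and 1 to 2 higher in that comparison. Over all genes, the same fits called 4473 to 5050 lower and 4339 to 4776 higher, against 5014 and 4987 with every tumour kept. The median log2 fold change of the 10 genes was -0.76 in CP2 against P1, -0.19 in CP1 against P1 and -0.17 in CP2 against CP1, beside 0.00, -0.01 and -0.01 over all tested genes. Both comparisons with P1 use the same 3 P1 tumours. Removing CP1 replicates 2 and 3 or P1 replicates 1 and 2 leaves 1 tumour of that line, which is then assumed to vary like the other lines. Lists are given for such fits by their median log2 fold change, without counts of genes called. The median of the 10 genes was -0.11 in CP2 against CP1 with CP1 replicates 2 and 3 removed. Without P1 replicates 1 and 2 it was -0.73 in CP2 against P1 and 0.01 in CP1 against P1.

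**Figure D1:**
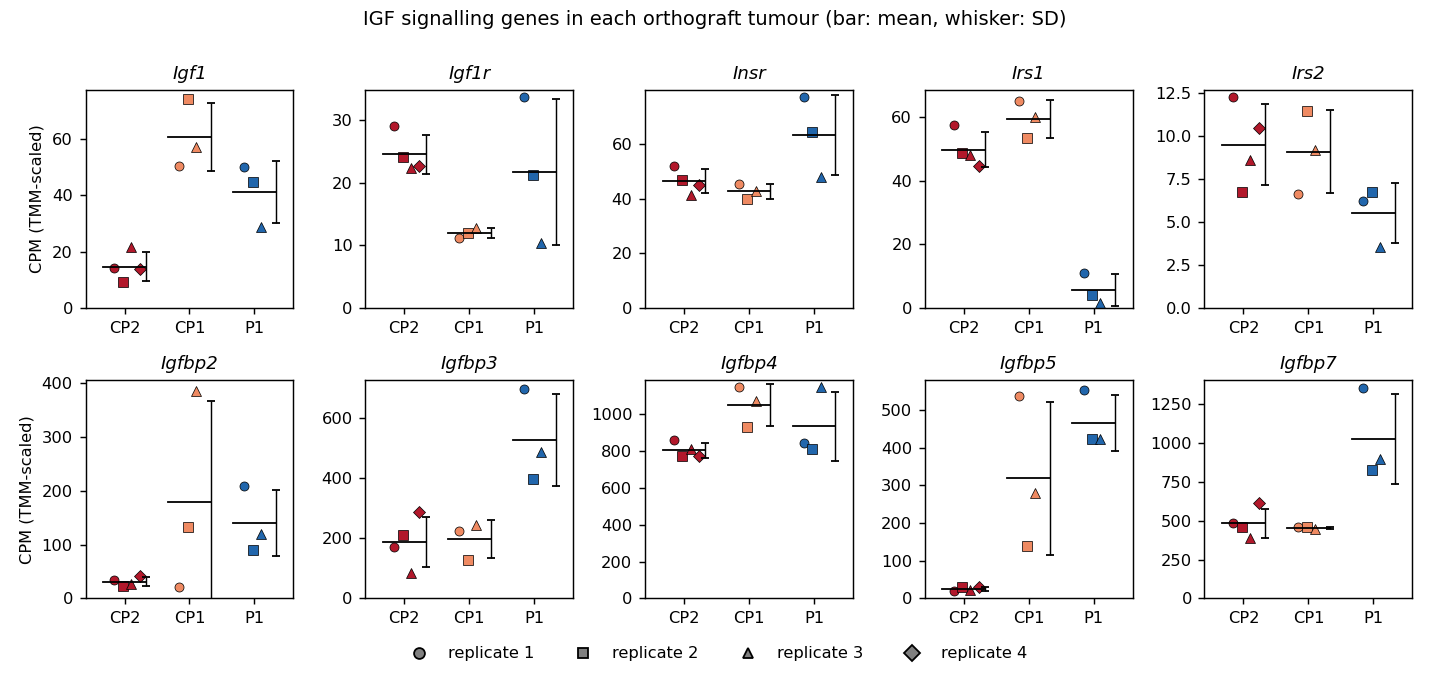
TMM-scaled CPM (vertical axes, from 0) of the 10 IGF genes in each tumour of CP2, CP1 and P1; symbols are replicates, horizontal bars are means and whiskers are SD, with the Igfbp2 whisker of CP1 drawn only down to 0. Irs1 lies at 44.6 CPM or more in all 7 CP2 and CP1 tumours and at 11.1 or less in P1, and Igfbp5 lies at 30.8 CPM or less in CP2 alone.

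**Figure D2:**
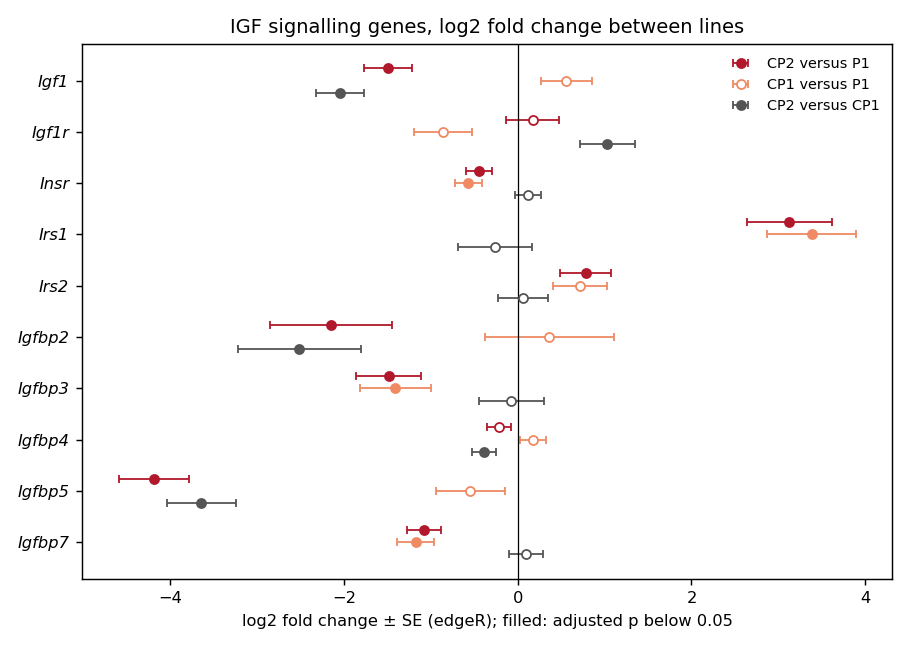
log2 fold changes with SE (horizontal axis) of the 10 IGF genes for CP2 versus P1, CP1 versus P1 and CP2 versus CP1; filled points have an adjusted p below 0.05. Irs1 stands at 3.12 and 3.38 against P1, and Igfbp5 at -4.19 in CP2 versus P1 and -3.64 in CP2 versus CP1.

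The ligand gene separated the 2 CP lines. Igf1 (ENSMUSG00000020053, GRCm38 chromosome 10: 87858265 to 87937042, plus strand) stood at 14.1, 9.32, 21.6 and 13.7 CPM in CP2, at 50.6, 74.3 and 57.3 CPM in CP1, against 50.2, 44.9 and 28.8 CPM in P1. Every CP2 tumour lay below every CP1 and every P1 tumour, and the CP1 tumours lay above P1 with a gap of less than 1 CPM. Igf1 was 4.13-fold lower in CP2 than in CP1 (log2 -2.05 ± 0.28, adjusted p = 3.33e-04) and 2.81-fold lower than in P1 (-1.49 ± 0.28, adjusted p = 0.00117). The difference of CP1 from P1, 0.56 ± 0.29, was not called (adjusted p = 0.150). With P1 replicates 1 and 2 removed, CP2 against P1 was -0.999 and no longer called (adjusted p = 0.0521). A list of 9 fibroblast genes summed to 7811 to 9658 CPM in CP2, 15222 to 23678 CPM in CP1 and 5144 to 9862 CPM in P1, with none at 0 counts in a tumour. Its members moved both ways in CP2, with 2 higher and 4 lower against CP1 and 4 higher and 4 lower against P1, and their part in the Igf1 result was not tested.

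The Igf1 values were also set beside those of Igf2, the fetal IGF gene, which stood at 6.09 to 8.17 CPM in CP2, 1.31 to 6.44 in CP1 and 5.48 to 7.95 in P1 and was called in no comparison. Without CP1 replicate 3 it was called lower in CP1 than in P1 (-1.55, adjusted p = 0.0115) and higher in CP2 than in CP1 (1.56, adjusted p = 0.0115), and with CP1 replicates 2 and 3 removed these values were -2.40 (adjusted p = 0.00133) and 2.41 (adjusted p = 0.00215). Levels of the 2 ligand genes were compared per kb of exon length. Per kb, Igf1 was 0.752 to 1.92 times Igf2 in CP2, 5.15 to 22.4 times in CP1 and 2.09 to 5.29 times in P1, so that the ratio of CP2 lay below the others in every tumour. Insulin transcripts were not detected, since Ins1 and Ins2 had 0 counts in all 10 tumours, which allows up to 0.0923 to 0.154 CPM per tumour as counting error alone.

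The 2 receptor genes behaved differently. Igf1r (ENSMUSG00000005533, chromosome 7: 67952827 to 68233668, plus strand), which encodes the main receptor of IGF-I, stood at 29.0, 24.1, 22.4 and 22.6 CPM in CP2, at 11.3, 12.0 and 12.7 CPM in CP1, against 33.7, 21.3 and 10.4 CPM in P1. The 4 CP2 tumours lay above the 3 CP1 tumours without overlap, while the P1 tumours spanned the range of both. Igf1r was 2.05-fold higher in CP2 than in CP1 (1.03 ± 0.31, adjusted p = 0.0238), and the call was lost when CP1 replicate 1, 2 or 3 or CP2 replicate 1 was left out (0.94 to 1.07, adjusted p 0.0562 to 0.0664). CP1 against P1 was -0.86 ± 0.33 (adjusted p = 0.0566), and CP2 against P1 was 0.17 ± 0.31 (adjusted p = 0.655). Both values with P1 rest on its replicates. CP1 against P1 was -1.21 without P1 replicate 3 (adjusted p = 0.00126) and was also called by DESeq2's Wald test (-0.87, adjusted p = 0.0262), and CP2 against P1 was 1.21 without P1 replicates 1 and 2 (adjusted p = 0.00148). With those 2 tumours removed, the sign of CP1 against P1 turned (0.18, adjusted p = 0.484).

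Insr (ENSMUSG00000005534, chromosome 8: 3122061 to 3279617, minus strand), the insulin receptor gene, stood at 52.1, 47.0, 41.5 and 45.1 CPM in CP2, at 45.2, 39.9 and 42.8 CPM in CP1, against 77.3, 64.3 and 48.0 CPM in P1. CP1 lay wholly below P1, and CP2 overlapped P1 through P1 replicate 3. Insr fell in CP1 (-0.57 ± 0.16, adjusted p = 0.0145) and in CP2 (-0.45 ± 0.15, adjusted p = 0.0252) against P1, and CP2 minus CP1 was 0.12 ± 0.15 (adjusted p = 0.530). The call in CP2 was lost when P1 replicate 1 or 2 or CP2 replicate 2, 3 or 4 was left out, and with P1 replicates 1 and 2 removed CP2 against P1 was -0.08 and CP1 against P1 -0.20, neither called. Per kb of exon length, Igf1r was 0.411 to 0.456 times Insr in CP2, 0.204 to 0.246 times in CP1 and 0.177 to 0.357 times in P1. Insr was thus the more abundant of the 2 receptor transcripts in all 10 tumours, and the ratio in CP2 lay above that of every CP1 and P1 tumour.

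The receptor and adaptor transcripts are long, with 16791 bases of exon in Igf1r, 13746 in Insr, 9144 in Irs1, 9904 in Igf1 and 6323 in Irs2, and the P1 libraries differed in their balance of long and short genes. For each tumour, log2 levels were set against the mean of the other tumours of its line. The median difference was taken over 2008 genes longer than 8 kb and over 1078 genes shorter than 2 kb. Long minus short was 0.50, 0.18 and -0.70 in P1 replicates 1, 2 and 3. It lay between -0.08 and 0.11 in CP2 and between -0.11 and 0.13 in CP1, and these values show spread within a line only. Between line means, long minus short was 0.54 in CP2 minus P1, 0.25 in CP1 minus P1 and 0.28 in CP2 minus CP1. Within P1, the levels of Igf1r, Insr, Irs1 and Igf1 ran in the same order of tumours as long minus short. With an offset for transcript length in each tumour, an alternative chosen after seeing the data, Igf1r in CP1 against P1 was called (-0.93, adjusted p = 0.0115) and Insr in CP2 against P1 was -0.72 (adjusted p = 1.71e-04).

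The adaptor gene Irs1 showed the largest rise of the 10 genes in both CP lines. Irs1 (ENSMUSG00000055980, chromosome 1: 82233101 to 82291416, minus strand), whose product is the docking protein first found downstream of the insulin receptor, stood at 57.5, 48.9, 48.0 and 44.6 CPM in CP2, at 65.1, 53.4 and 59.9 CPM in CP1, against 11.1, 4.14 and 1.71 CPM in P1. The 7 CP tumours formed a narrow band, and the highest P1 tumour stood far below the lowest of them. Irs1 was 8.72-fold higher in CP2 (3.12 ± 0.49, adjusted p = 4.13e-04) and 10.4-fold higher in CP1 (3.38 ± 0.51, adjusted p = 4.33e-04) than in P1. CP2 minus CP1 was -0.26 ± 0.43 (adjusted p = 0.648). The size of both rises depended on P1 replicate 1, the highest in P1: without it they were 4.06 in CP2 (adjusted p = 1.37e-05) and 4.31 in CP1 (adjusted p = 1.59e-05). They were 4.83 in CP2 and 5.08 in CP1 when P1 replicates 1 and 2 were taken out. With the offset for transcript length the rises were 2.96 in CP2 (adjusted p = 2.90e-04) and 3.33 in CP1 (adjusted p = 2.45e-04). The gene lies over the antisense gene model Gm9747 for 2822 bases. The strand setting of the counting is unknown here, and Gm9747 itself had 0 counts in every tumour. The epithelial markers moved opposite to Irs1 against P1, and their part in the result was not tested.

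Irs2 (ENSMUSG00000038894, chromosome 8: 10984681 to 11008458, minus strand), its paralog, was lower in level and less clearly different. It stood at 12.2, 6.72, 8.57 and 10.4 CPM in CP2, at 6.60, 11.5 and 9.19 CPM in CP1, against 6.22, 6.76 and 3.54 CPM in P1. The groups overlapped in each comparison. The rise in CP2 against P1 was 0.78 ± 0.29 (adjusted p = 0.0435), and it was lost when P1 replicate 1 or 3 or CP2 replicate 1, 3 or 4 was left out, with no filter on low counts (0.73, adjusted p = 0.0648), and with the offset for transcript length (0.67, adjusted p = 0.0599). CP1 against P1 was 0.72 ± 0.31 (adjusted p = 0.0843), and 0.89 without CP1 replicate 1 (adjusted p = 0.0480). Per kb of exon length, Irs1 was 2.96 to 5.03 times Irs2 in CP2, 3.22 to 6.82 times in CP1 and 0.335 to 1.24 times in P1. Irs1 was thus the more abundant adaptor transcript in all 7 CP tumours, and in P1 it was so in replicate 1 alone.

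The 250 bases before the RefSeq start of the 2 adaptor genes (GRCm38.p6) are shown because both were called higher in CP2 against P1. Capitals mark the E-box CACGTG, which reads the same on both strands. Irs1 is at chr1:82291440-82291689 and Irs2 at chr8:11008930-11009179, both given along the minus strand, 5′ to 3′.
Irs1: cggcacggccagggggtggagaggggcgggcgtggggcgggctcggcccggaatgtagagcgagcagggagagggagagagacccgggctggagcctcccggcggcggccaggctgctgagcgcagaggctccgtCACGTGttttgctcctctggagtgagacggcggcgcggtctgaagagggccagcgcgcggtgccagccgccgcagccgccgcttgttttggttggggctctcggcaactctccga
Irs2: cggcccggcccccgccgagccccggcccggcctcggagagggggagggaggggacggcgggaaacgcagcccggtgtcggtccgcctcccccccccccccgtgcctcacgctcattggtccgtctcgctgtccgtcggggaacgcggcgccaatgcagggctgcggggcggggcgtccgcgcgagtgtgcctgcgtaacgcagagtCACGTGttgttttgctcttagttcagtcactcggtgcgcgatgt
The E-box lies at bases -115 to -110 of Irs1 and -44 to -39 of Irs2, counted back from the start. It occurs in 6.02% of 32851 RefSeq mouse promoters of this length. Both windows are rich in G and C, at 72.4% and 72.8%, against a median of 52.4% over all promoters. The other motifs searched on both strands were the TCF/LEF cores CTTTGAT (3.21% of promoters) and CTTTGAA (4.46%), the FoxO motif GTAAACA (3.17%), the AP-1 motif TGAGTCA (4.46%) and the TATA box TATAAA (12.4%), and neither window holds these letters.

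The binding proteins held the most abundant transcripts of the set. Per kb of exon length, Igfbp7 came first in each line, at 400.2 ± 77.1 CPM per kb in CP2, 374 ± 6.88 in CP1 and 846 ± 237 in P1 (SD, n = 4, 3 and 3). Igfbp4 came next, at 182 ± 9.57, 238 ± 25.4 and 211 ± 42.6 CPM per kb in CP2, CP1 and P1, and its values overlapped those of Igfbp7 in no tumour group. In P1 its range met that of Igfbp3, which stood at 168 ± 48.7 CPM per kb there. The receptor, adaptor and ligand transcripts stood at 7.50 CPM per kb or less in every tumour. Summed over Igfbp2 to Igfbp7, the 6 binding proteins gave 569 to 811 CPM per kb in CP2, 746 to 955 in CP1 and 1151 to 1777 in P1. The P1 tumours held more than every CP tumour, and CP2 and CP1 overlapped.

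**Figure D3:**
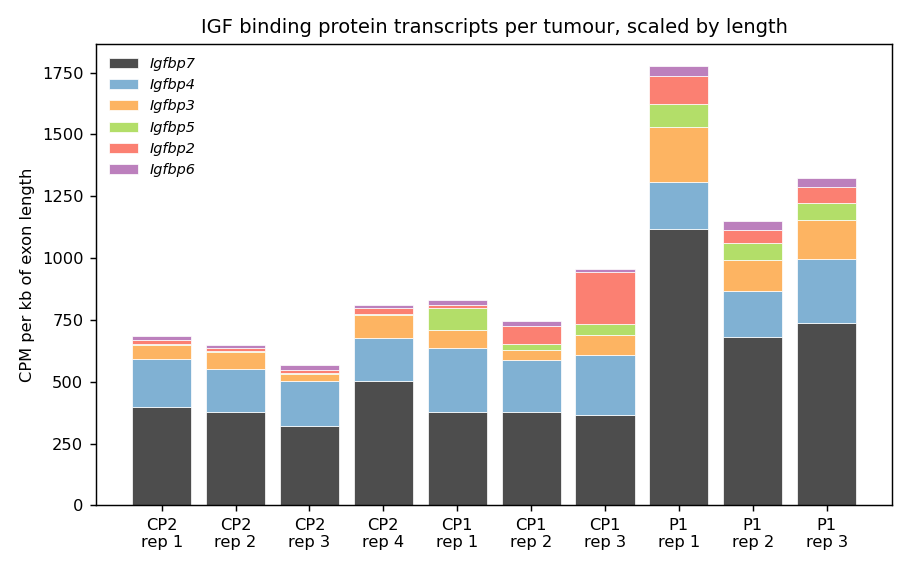
CPM per kb of exon length (vertical axis) of 6 IGF binding protein genes, stacked for each of the 4 CP2, 3 CP1 and 3 P1 tumours. Stacks reach 569 to 811 in CP2, 746 to 955 in CP1 and 1151 to 1777 in P1; Igfbp7 is the largest piece of each, and Igfbp2 takes 21.8% of the stack in CP1 replicate 3.

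Igfbp7 (ENSMUSG00000036256, chromosome 5: 77349240 to 77408041, minus strand), which encodes a secreted protein of the vessel wall and matrix that binds IGFs only weakly, stood at 483, 457, 386 and 610 CPM in CP2, at 457, 458 and 443 CPM in CP1, against 1351, 825 and 892 CPM in P1. All 7 CP tumours lay below all 3 P1 tumours. It fell 2.11-fold in CP2 (-1.08 ± 0.19, adjusted p = 8.98e-04) and 2.26-fold in CP1 (-1.18 ± 0.21, adjusted p = 0.00122) against P1, and CP2 minus CP1 was 0.10 ± 0.19 (adjusted p = 0.711). Of 8 endothelial markers, whose sum was 150 to 274 CPM in CP2, 230 to 282 in CP1 and 232 to 427 in P1, 5 fell in CP2 and 0 were called in CP1 against P1. None of the 8 was at 0 counts in a tumour, and their part in the Igfbp7 result was not tested. The gene shares 85 exonic bases with Polr2b on the other strand, so a small part of its counts is uncertain.

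Igfbp3 (ENSMUSG00000020427, chromosome 11: 7206086 to 7213923, minus strand), the main carrier of IGFs in serum, showed the same pattern. It stood at 169, 210, 85.6 and 286 CPM in CP2, at 224, 126 and 243 CPM in CP1, against 694, 396 and 487 CPM in P1. Neither CP line overlapped P1, while the CP lines overlapped each other. The fall was -1.49 ± 0.37 in CP2 (adjusted p = 0.0068) and -1.41 ± 0.41 in CP1 (adjusted p = 0.0175) against P1. The CP1 call was lost without P1 replicate 1 (-1.18, adjusted p = 0.0547) or without CP1 replicate 2 (-1.17, adjusted p = 0.0598), and both calls were lost with P1 replicates 1 and 2 removed (-1.40, adjusted p = 0.0573 in CP2, and -1.33, adjusted p = 0.0941 in CP1).

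Igfbp4 (ENSMUSG00000017493, chromosome 11: 99041244 to 99054392, plus strand), an inhibitor of IGF action until it is cleaved, varied little. It stood at 860, 771, 813 and 771 CPM in CP2, at 1150, 929 and 1073 CPM in CP1, against 841, 809 and 1150 CPM in P1. CP2 lay below CP1 without overlap, and P1 overlapped both. CP2 minus CP1 was -0.39 ± 0.14 (adjusted p = 0.0477), a call that was lost when any 1 of 6 of the 7 CP tumours was left out. CP2 against P1 was -0.22 ± 0.14 (adjusted p = 0.214) and CP1 against P1 was 0.17 ± 0.15 (adjusted p = 0.388). Without P1 replicate 3 the CP1 difference was 0.34 and called (adjusted p = 0.0392). Removing P1 replicates 1 and 2 gave a CP2 difference of -0.55, which was called (adjusted p = 0.00984).

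The neighbours Igfbp2 and Igfbp5 lie tail to tail on chromosome 1, with 5457 bases and 0 counted genes between their ends, and both were low in CP2. Igfbp5 (ENSMUSG00000026185, chromosome 1: 72857932 to 72874884, minus strand), a binding protein that attaches to matrix, stood at 18.9, 30.1, 22.1 and 30.8 CPM in CP2, at 537, 139 and 279 CPM in CP1, against 552, 423 and 422 CPM in P1. The highest CP2 tumour lay far below the lowest of the other 6. Igfbp5 was 18.3-fold lower in CP2 than in P1 (-4.19 ± 0.40, adjusted p = 1.78e-05) and 12.5-fold lower than in CP1 (-3.64 ± 0.39, adjusted p = 8.75e-05), and both calls were kept under every alternative run. CP1 against P1 was -0.55 ± 0.40 (adjusted p = 0.293), and -1.16 without CP1 replicate 1 (adjusted p = 0.0163). When CP1 replicates 2 and 3 were left out it was 0.21 (adjusted p = 0.632).

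Igfbp2 (ENSMUSG00000039323, chromosome 1: 72824503 to 72852474, plus strand), a carrier that binds IGF-II with preference, stood at 34.5, 22.6, 26.4 and 42.2 CPM in CP2, at 21.7, 133 and 385 CPM in CP1, against 208, 90.6 and 120 CPM in P1. CP2 lay below all P1 tumours, while the CP1 tumours ran from below CP2 to above P1. Igfbp2 was lower in CP2 than in P1 (-2.15 ± 0.70, adjusted p = 0.0246) and than in CP1 (-2.52 ± 0.71, adjusted p = 0.0171). The call against P1 was lost without P1 replicate 1 or without CP2 replicate 1, 2 or 3 (-1.76 to -2.20, adjusted p 0.05004 to 0.0807), as it was when P1 replicates 1 and 2 were taken out (-1.96, adjusted p = 0.138). The call against CP1 was lost without CP1 replicate 3 (-1.30, adjusted p = 0.115), and with CP1 replicates 2 and 3 removed the sign turned (0.53, adjusted p = 0.463). CP1 against P1 was 0.36 ± 0.74 (adjusted p = 0.719), and with those 2 tumours removed it was -2.68 (adjusted p = 0.0075).

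Smooth muscle transcripts were also low in CP2 and varied among the CP1 tumours. The sum of Acta2, Tagln, Myh11, Cnn1, Des and Smtn was 303, 262, 280 and 517 CPM in CP2, 609, 2533 and 3796 CPM in CP1, and 2690, 1216 and 963 CPM in P1, with none of the 6 at 0 counts. CP1 replicate 1, the CP1 tumour lowest in Igfbp2, was the lowest there too, while it was the CP1 tumour highest in Igfbp5. In P1 the order was not shared, since replicate 3 was lowest in smooth muscle transcripts and replicate 2 in Igfbp2. Of the 6 smooth muscle genes, 6 fell in CP2 against CP1, 5 fell in CP2 against P1, and 1 rose in CP1 against P1. Their median log2 fold change in CP2 against CP1 was -3.18, and -0.67 with CP1 replicates 2 and 3 removed. In CP2 against P1 it was -2.65, and -1.70 with P1 replicates 1 and 2 removed. The part of the smooth muscle genes in the Igfbp2 and Igfbp5 results was not tested. CP1 replicates 2 and 3 also held 1350 and 546 CPM of 6 urothelial markers, against 58.3 CPM in CP1 replicate 1, and their part was not tested either.

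**Figure D4:**
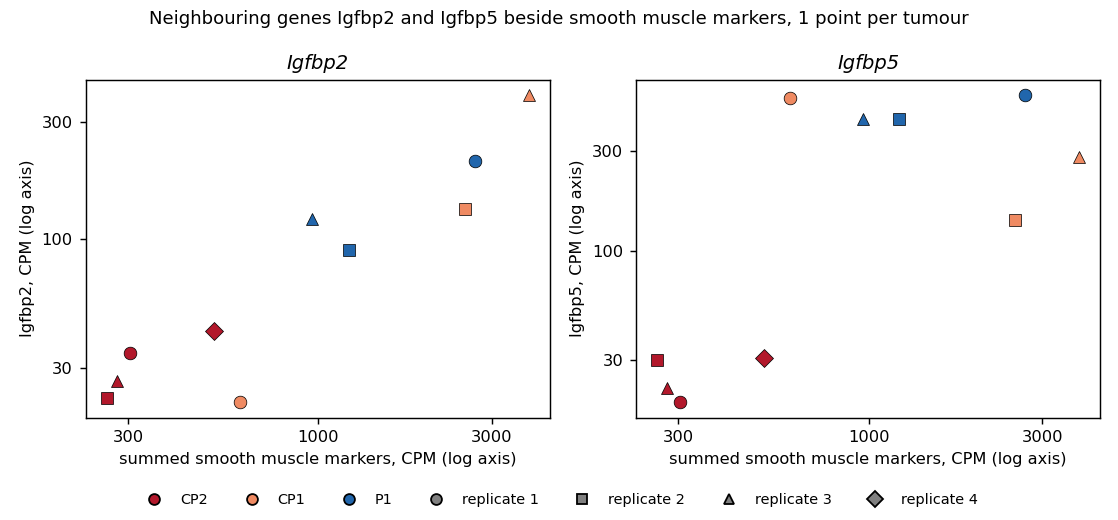
CPM of Igfbp2 (left) and Igfbp5 (right) against the summed CPM of 6 smooth muscle genes, both on log axes, with 1 point per tumour of CP2, CP1 and P1. CP1 replicate 1, at 609 CPM of smooth muscle transcripts, sits with CP2 for Igfbp2 (21.7 CPM) and with P1 for Igfbp5 (537 CPM).

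The 250 bases before the RefSeq start of each neighbour (GRCm38.p6) are shown because both were low in CP2 and their values parted in CP1 replicate 1. Igfbp2 is at chr1:72824230-72824479 on the plus strand and Igfbp5 at chr1:72874866-72875115 on the minus strand, each along its own strand, 5′ to 3′. Capitals mark the E-box CACGTG.
Igfbp2: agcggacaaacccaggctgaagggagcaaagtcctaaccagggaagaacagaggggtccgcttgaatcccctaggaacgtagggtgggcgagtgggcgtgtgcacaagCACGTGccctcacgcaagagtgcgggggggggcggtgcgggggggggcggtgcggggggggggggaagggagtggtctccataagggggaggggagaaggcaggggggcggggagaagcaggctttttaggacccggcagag
Igfbp5: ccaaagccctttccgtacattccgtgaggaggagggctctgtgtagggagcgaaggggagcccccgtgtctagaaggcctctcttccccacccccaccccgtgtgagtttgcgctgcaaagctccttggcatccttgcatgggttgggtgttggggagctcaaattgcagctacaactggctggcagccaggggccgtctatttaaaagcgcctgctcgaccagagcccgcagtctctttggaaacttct
Igfbp2 holds the E-box at bases -142 to -137 from this start, and a second RefSeq start of the gene, not shown, holds the AP-1 letters TGAGTCA at -39 to -33. The Igfbp5 window holds none of the 6 motifs. Of the other members, Igf1 holds CTTTGAA, Igfbp4 holds TATAAA, and Igf1r, Igfbp3 and Igfbp7 hold none, with 9 of the 10 genes matched to a promoter entry. Insr has none.

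To place the 3 genes that differed most across the lines, the genes with the most similar profile were taken from the 12814 genes averaging 5 CPM or more in at least 1 line, by Pearson's r of log2 CPM over the 10 tumours. The points share libraries and fall into 3 lines, so that r describes these tumours only. Within P1, the levels of Irs1 and Igf1 ran in the order of long minus short. The part of that balance of long and short genes in the r values was not tested. Closest to Irs1 were Prrc2c (r = 0.997), Atp8b2 (0.993) and Klhl20 (0.992). Atp8b2 averaged 167 CPM in CP2, 179 in CP1 and 42.1 in P1, and Prrc2c 214 in CP2, 225 in CP1 and 101 in P1, both a smaller step than that of Irs1. Closest to Igfbp5 were Zfp599 (0.994), Jmjd8 (0.989) and Clec11a (0.983). Zfp599 reached that level in P1 alone, with means of 2.18 CPM in CP2, 4.67 in CP1 and 5.25 in P1, and Clec11a fell short of it in CP2 (4.70), so the filter itself favours a low CP2 value in these genes. Jmjd8 averaged 17.6 CPM in CP2, 36.2 in CP1 and 43.8 in P1. The fall of each of these genes in CP2 was smaller than that of Igfbp5. Closest to Igf1 were Lin7a (0.971), Ginm1 (0.968) and 2410002F23Rik (0.967). Lin7a, also under 5 CPM in CP2, averaged 0.861 CPM in CP2, 13.6 in CP1 and 5.80 in P1. Ginm1 averaged 36.8 CPM in CP2, 51.4 in CP1 and 46.7 in P1, a smaller step than that of Igf1. The step of 2410002F23Rik was smaller too, with 37.4 CPM in CP2, 50.2 in CP1 and 47.2 in P1.

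Of the genes whose products cut the binding proteins or hold back the cutting, Htra1, Pappa and Stc1 were called higher in both CP lines than in P1. Of 19 other genes of the IGF axis, 13 passed the filter on low counts. Against P1, 5 rose and 3 fell in CP2, where 56.7% of all tested genes were called. In CP1 against P1, 4 rose and 2 fell (44.8% of all genes), and in CP2 against CP1, 4 rose and 3 fell (43.3%). The 13 genes had a median log2 fold change of 0.25 in both comparisons with P1 and -0.23 in CP2 against CP1. They were not tested as a set. With P1 replicates 1 and 2 removed, 15 genes passed the filter, so this set differs from the 13. Their median was 0.26 in CP2 against P1 and 1.92 in CP1 against P1. The P1 tumour that remains is replicate 3, the lowest of P1 in long minus short (-0.70).

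Htra1, a secreted serine protease known to cleave IGF binding proteins, stood at 952, 956, 958 and 1277 CPM in CP2, at 1777, 1507 and 1136 CPM in CP1, against 40.1, 30.9 and 30.3 CPM in P1. It was 30.6-fold higher in CP2 (4.94 ± 0.23, adjusted p = 3.67e-07) and 43.6-fold higher in CP1 (5.45 ± 0.23, adjusted p = 4.55e-07) than in P1, with no overlap. CP2 minus CP1 was -0.51 ± 0.18 (adjusted p = 0.0438), and that call was lost when CP1 replicate 1 or 2 or CP2 replicate 1, 2 or 3 was left out.

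Pappa encodes pappalysin-1, a metalloprotease that frees IGFs by cutting the protein of Igfbp4. It stood at 31.4, 21.6, 26.0 and 29.9 CPM in CP2, at 2.33, 11.5 and 8.95 CPM in CP1, against 2.86, 2.37 and 1.53 CPM in P1. CP2 lay above both other lines without overlap, by 12.0-fold over P1 (3.59 ± 0.49, adjusted p = 1.80e-04) and 3.58-fold over CP1 (1.84 ± 0.45, adjusted p = 0.0083). The rise in CP1 against P1 was 1.75 ± 0.48 (adjusted p = 0.0140), and CP1 overlapped P1 through CP1 replicate 1. That call was lost without P1 replicate 3 or without CP1 replicate 2. The value was 0.05 with CP1 replicates 2 and 3 removed and 2.28 with P1 replicates 1 and 2 removed.

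Stc1, whose secreted product stanniocalcin-1 inhibits pappalysin-1, stood at 387, 351, 422 and 358 CPM in CP2, at 147, 123 and 126 CPM in CP1, against 11.7, 5.36 and 5.98 CPM in P1. The 3 lines were apart without overlap, and Stc1 was 49.2-fold higher in CP2 (5.62 ± 0.29, adjusted p = 6.04e-07) and 17.1-fold higher in CP1 (4.10 ± 0.28, adjusted p = 3.75e-06) than in P1. CP2 exceeded CP1 by 1.52 ± 0.24 (adjusted p = 7.14e-04). Its paralog Stc2 did not follow, at 31.0 to 41.7 CPM in CP2, 7.40 to 17.5 in CP1 and 11.6 to 42.0 in P1, and was called higher in CP2 than in CP1 (1.55 ± 0.43, adjusted p = 0.0154), a call lost without CP1 replicate 2 (1.27, adjusted p = 0.0555). Stc2 was lower in CP1 than in P1 (-1.29 ± 0.44, adjusted p = 0.0365), a call lost without P1 replicate 1 or 3 or CP1 replicate 2 or 3. Pappa2, whose product is a related protease, stood at 2.80 to 5.01 CPM in CP2, 4.41 to 5.26 in CP1 and 0.474 to 2.99 in P1. It was not called in CP2 (0.94 ± 0.48, adjusted p = 0.121) or in CP1 (1.27 ± 0.51, adjusted p = 0.0653) against P1, but was with P1 replicates 1 and 2 removed (3.01, adjusted p = 8.31e-04 in CP2, and 3.34, adjusted p = 8.62e-04 in CP1).

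Igf2r, the receptor that clears IGF-II into lysosomes, stood at 237, 268, 237 and 240 CPM in CP2, at 748, 632 and 747 CPM in CP1, against 168, 122 and 113 CPM in P1. It was higher in CP2 (0.87 ± 0.14, adjusted p = 5.64e-04) and in CP1 (2.40 ± 0.16, adjusted p = 3.23e-06) than in P1, and lower in CP2 than in CP1 (-1.53 ± 0.14, adjusted p = 3.45e-05). Igfbp6, a carrier with a preference for IGF-II, stood at 14.3 to 22.0 CPM in CP2, 15 to 24.1 in CP1 and 37.5 to 47.0 in P1, and fell in CP2 (-1.35 ± 0.19, adjusted p = 2.20e-04) and in CP1 (-1.12 ± 0.21, adjusted p = 0.00157) as Igfbp3 and Igfbp7 did.

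**Figure D5:**
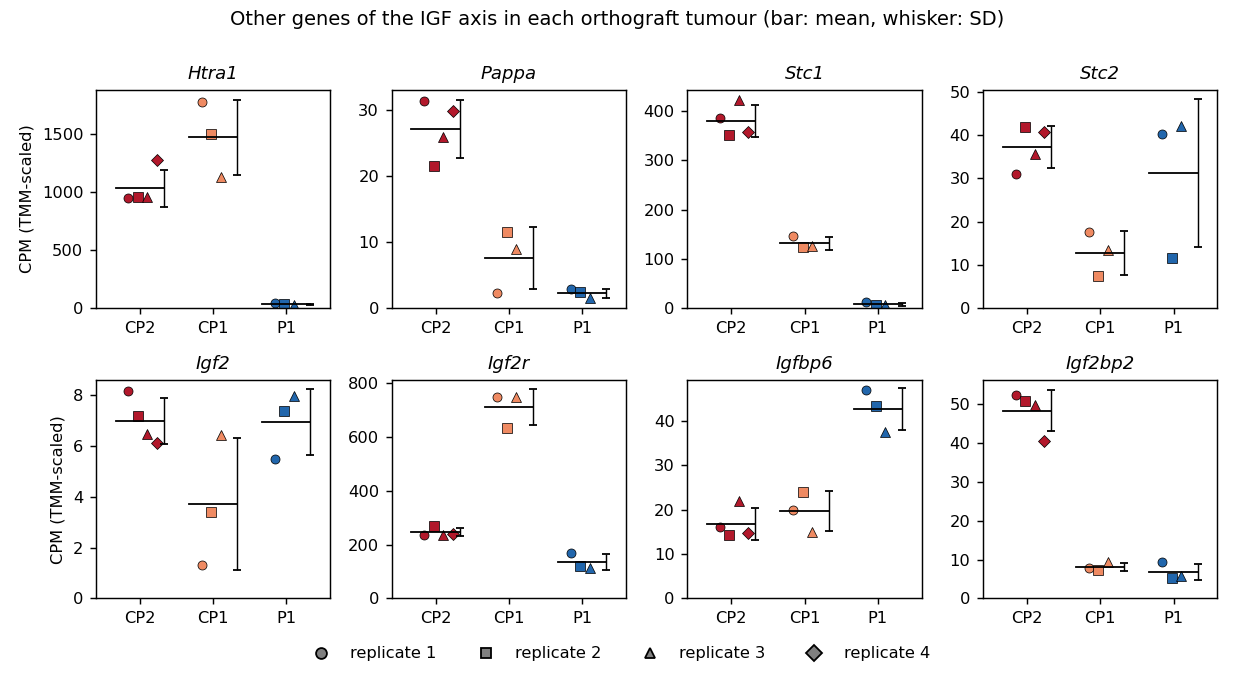
TMM-scaled CPM (vertical axes, from 0) of 8 further IGF axis genes in each tumour of CP2, CP1 and P1; symbols are replicates, bars are means and whiskers are SD. Htra1 lies at 952 CPM or more in all CP2 and CP1 tumours and at 40.1 or less in P1, and Stc1 and Pappa are highest in CP2.

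Among 16 genes whose products act on the activated receptors or their adaptors, 4 rose and 7 fell in CP2 against P1. In CP1 against P1, 3 rose and 1 fell, and in CP2 against CP1, 2 rose and 6 fell. Medians were -0.30, 0.11 and -0.01 in that order, and the shares of all tested genes called were 56.7%, 44.8% and 43.3%. The list was not tested as a set. The median was -0.09 in CP2 against CP1 with CP1 replicates 2 and 3 removed, and -0.23 in CP2 against P1 with P1 replicates 1 and 2 removed. Grb14, an inhibitory adaptor of the insulin receptor, stood at 44.7 to 55.2 CPM in CP2, 2.87 to 7.55 in CP1 and 4.05 to 6.31 in P1, and was 9.21-fold higher in CP2 than in P1 (3.2 ± 0.30, adjusted p = 1.58e-05). Shc2, an adaptor of the Shc family, showed the reverse, at 3.24 to 4.88 CPM in CP2, 120 to 166 in CP1 and 44.6 to 57.3 in P1. It was 35.1-fold lower in CP2 than in CP1 (-5.13 ± 0.18, adjusted p = 2.45e-07), while it rose in CP1 against P1 (1.5 ± 0.17, adjusted p = 6.40e-05). Socs2, a feedback inhibitor of cytokine and growth hormone signalling, stood at 21.6 to 25.8 CPM in CP2, 12.1 to 18.2 in CP1 and 54.3 to 74.5 in P1, lower in CP2 (-1.38 ± 0.16, adjusted p = 6.37e-05) and in CP1 (-1.96 ± 0.18, adjusted p = 2.04e-05). Shc1, the widely expressed family member, was the most abundant gene of the list not called in CP2 against P1 (-0.11 ± 0.09, adjusted p = 0.323).

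Of 30 genes of the PI3-kinase, AKT and mTOR cascade downstream, 10 rose and 6 fell in CP2 against P1. In CP1 against P1, 6 rose and 2 fell, and in CP2 against CP1, 11 rose and 6 fell. Medians were 0.21, 0.17 and 0.21 in that order, beside 56.7%, 44.8% and 43.3% of all tested genes called. This list was not tested as a set either. Without CP1 replicates 2 and 3 the median was 0.09 in CP2 against CP1 and 0.10 in CP1 against P1. Without P1 replicates 1 and 2 it was 0.34 in CP1 against P1 and 0.54 in CP2 against P1. Akt1, which encodes an AKT kinase, stood at 203 to 217 CPM in CP2, 401 to 442 in CP1 and 365 to 403 in P1, and fell in CP2 against P1 (-0.91 ± 0.08, adjusted p = 1.11e-05) and against CP1 (-1.04 ± 0.08, adjusted p = 1.36e-05).

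Deptor, whose product binds and inhibits mTOR, stood at 6.46 to 24.6 CPM in CP2, 67.7 to 118 in CP1 and 59.5 to 96.2 in P1, and fell in CP2 against P1 (-2.52 ± 0.42, adjusted p = 5.81e-04) and against CP1 (-2.76 ± 0.42, adjusted p = 6.32e-04). Inpp4b, a phosphatase that acts on lipid products of PI3-kinase, stood at 9.47 to 11.1 CPM in CP2, 0.607 to 1.17 in CP1 and 1.46 to 4.80 in P1, and was higher in CP2 than in CP1 (3.60 ± 0.41, adjusted p = 1.22e-04) and than in P1 (1.62 ± 0.36, adjusted p = 0.00364). Its fall in CP1 against P1 (-1.98 ± 0.41, adjusted p = 0.00288) was lost when CP1 replicates 2 and 3 (-1.51, adjusted p = 0.0922) or P1 replicates 1 and 2 (-0.82, adjusted p = 0.0929) were removed. Eif4ebp1, a repressor of cap-dependent translation that mTOR inactivates, stood at 38.0 to 42.3 CPM in CP2, 86.3 to 119 in CP1 and 43.6 to 62.6 in P1, and was lower in CP2 than in CP1 (-1.29 ± 0.14, adjusted p = 1.02e-04). It rose in CP1 against P1 (0.91 ± 0.15, adjusted p = 9.14e-04), a call kept under all alternatives run. CP2 against P1 was -0.38 ± 0.14 (adjusted p = 0.0449), a call lost when any 1 of 6 of the 7 tumours compared was left out.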

How the data were processed

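RNA was sequenced from 10 tumours, with 1 count file each. The authors deposited raw counts, whole numbers of reads for each Ensembl gene. The submitters' processing notes name the build GRCm38.p3 and, in no stated order, the aligners TopHat2 2.1.0 and Bowtie2 2.2.6.0, the counter HTSeq 0.6.0, the read check FastQC 0.11.4, and DESeq2 1.14.1 in R 3.2.3. Neither library strand nor the strand setting of counting is stated in the sources used here. Of 47069 gene IDs, 46574 matched GENCODE M21 (GRCm38), which gave symbols, coordinates and exon lengths, and 495 did not.

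Counts were fitted in R 4.3.3 by edgeR 4.0.16, which calls limma 3.58.1, in a quasi-likelihood model with a mean per line over all 10 tumours, after filterByExpr (minimum count 10, minimum total 15) and with TMM factors. The model was tested on simulated data with known fold changes. Each SE was computed from the log2 fold change and the F statistic (the ratio to the root of F). CPM per kb divides by the union of a gene's exons. Replicates are numbered in accession order and pair no samples. Sample codes that some P1 and CP2 titles share have no stated meaning and were not used.

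The members and gene lists were chosen with earlier results of these data known. Genes outside the members were named by rule: every tested gene of the axis list, and per other list and comparison up to 2 called rises and 2 called falls and the most abundant gene not called, with a mean of at least 5 CPM. Some named by the rule are left out. Marker and likeness genes follow their own lists. Alternatives were DESeq2 size factors, TMM without seminal vesicle genes, DESeq2 1.42.0's Wald test, no filter, only the 2 lines compared, leaving out each tumour, removing CP1 replicates 2 and 3 or P1 replicates 1 and 2, and, chosen after seeing the data, a length offset per tumour. Part of the genotypes and some genes of the lists are not reported here.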

Additional observations from a re-analysis of the deposited data

Results flagged for a closer look

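Among the 4 CP2 tumours, 1 tumour stood apart from the other 3 for 2 of the 23 genes examined in this way, the 10 members and the 13 tested genes of the axis list. Igf2r was 268 CPM in CP2 replicate 2, against 237 to 240 CPM in the other CP2 tumours, with a gap of 0.880 of the whole range. Htra1 was 1277 CPM in CP2 replicate 4, against 952 to 958 CPM in the others, with a gap of 0.982 of the range. Both gaps pass Dixon's 95% critical value for 4 values, which chance passes in about 1 of 20 groups. CP1 and P1, with 3 tumours each, were not examined.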

How the results depend on the processing

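Of 420 values of the 10 members under an alternative, 370 stayed on their side of the threshold, 39 lost a call, 9 gained one and 2 turned sign with a call on 1 side. Those 2 were Igfbp2 with CP1 replicates 2 and 3 removed, at -2.68 in CP1 against P1 and 0.53 in CP2 against CP1. A further 14 values, called neither before nor after, turned sign too. That removal also left 2094 genes higher and 2067 lower in CP2 against CP1, with 0 members higher and 2 lower, and fewer samples enter it. The calls of Insr (-0.48, adjusted p = 0.187) and Igfbp3 (-1.23, adjusted p = 0.167) in CP1 against P1 and of Igf1r (1.12, adjusted p = 0.171) and Igfbp4 (-0.52, adjusted p = 0.111) in CP2 against CP1 were lost there too. Without P1 replicates 1 and 2 the median of the members was 0.01 in CP1 against P1 and -0.73 in CP2 against P1. In CP2 against P1, 1 member was higher with no filter on low counts and likewise with the length offset, since Irs2 was no longer called. Leaving out 1 tumour at a time gave 1 to 2 members higher in CP1 against P1 and in CP2 against P1, and 0 to 1 higher and 2 to 4 lower in CP2 against CP1. The members lower against P1 were 4 to 6 in CP2 and 2 to 4 in CP1. Over all genes, these fits called 3323 to 3907 higher and 3398 to 4109 lower in CP1 against P1. In CP2 against P1 they called 4339 to 4776 higher and 4473 to 5050 lower. In CP2 against CP1 they called 3094 to 3337 higher and 3131 to 3533 lower. Apart from the fits that leave 1 tumour of a line, other counts of genes and members stayed within 1.5 times. The calls of Irs1, Igfbp5 and Igfbp7 were kept under all alternatives run. No paired analysis was possible because the labels give no replicate numbers that tie tumours across lines. Some P1 and CP2 titles share a sample code of unstated meaning, which was not used as a pairing. Depth limits the rare transcripts most in CP2, where 3 counts are 0.137 to 0.154 CPM, and no member was that low.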

Other observations

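Genes known as targets of FoxO factors, which AKT holds out of the nucleus, moved in both directions. Of 15 such genes, 3 rose and 7 fell in CP2 against P1, where 56.7% of all tested genes were called. In CP1 against P1, 2 rose and 3 fell (44.8% of all genes), and in CP2 against CP1, 3 rose and 5 fell (43.3%). Median log2 fold changes were -0.25, 0.02 and 0.10 in that order, and the 15 genes were not tested as a set. Without P1 replicates 1 and 2 the median was -0.12 in CP2 against P1 and 0.22 in CP1 against P1. Without CP1 replicates 2 and 3 it was -0.01 in CP2 against CP1. Bcl2l11, which encodes the pro-apoptotic protein BIM, stood at 64.2 to 93.6 CPM in CP2, 50.2 to 56.7 in CP1 and 27.2 to 33.1 in P1, higher in CP2 (1.31 ± 0.14, adjusted p = 3.26e-05) and in CP1 (0.80 ± 0.14, adjusted p = 0.00131). Txnip, an inhibitor of glucose uptake, stood at 196 to 238 CPM in CP2, 133 to 231 in CP1 and 397 to 449 in P1, lower in CP2 (-0.92 ± 0.17, adjusted p = 0.00127) and in CP1 (-1.08 ± 0.19, adjusted p = 0.00107). Cited2, a transcriptional co-regulator, stood at 24 to 31.5 CPM in CP2, 50.1 to 68.8 in CP1 and 52.4 to 72.4 in P1, lower in CP2 than in P1 (-1.16 ± 0.16, adjusted p = 1.60e-04) and than in CP1 (-1.18 ± 0.16, adjusted p = 2.96e-04).

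Of the RNA-binding proteins named for the Igf2 transcript, Igf2bp2 stood at 40.5 to 52.4 CPM in CP2, 7.30 to 9.31 in CP1 and 5.33 to 9.30 in P1. It was 7.08-fold higher in CP2 than in P1 (2.82 ± 0.21, adjusted p = 4.07e-06) and 5.95-fold higher than in CP1 (2.57 ± 0.21, adjusted p = 1.78e-05). Igf2bp1 stood at 0.0490 to 0.465 CPM in CP2, 3.36 to 5.65 in CP1 and 0.374 to 2.99 in P1, lower in CP2 than in CP1 (-3.75 ± 0.72, adjusted p = 0.0023). Its raw counts in CP2 were only 9, 1, 7 and 10, so its level there is poorly measured. Igf2bp1 was also called lower in CP2 than in P1 (-2.10 ± 0.72, adjusted p = 0.0306). That call was lost without P1 replicate 1 or CP2 replicate 2 or 3. Igf2bp3 was at 0.687 CPM or less in every tumour and was called in no comparison.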
